A study of Mus musculus with 3 samples.

Results

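Annexins are a family of proteins that bind acidic phospholipids of cell membranes when calcium rises. They act in membrane repair, in the fusion and traffic of vesicles and, outside the cell, in the end of inflammation: ANXA1, which glucocorticoids are known to induce, is stored in neutrophil granules and acts through formyl peptide receptors on leukocytes. In the bone marrow, neutrophils pass from promyelocytes, which make the azurophil granule enzyme MPO, to late cells that carry the collagenase MMP8, a granule protein, and the secreted protein RETNLG. The 8 annexin genes described here (*Anxa1*, *Anxa2*, *Anxa3*, *Anxa4*, *Anxa5*, *Anxa6*, *Anxa7* and *Anxa11*) were taken by name from the 27998 genes counted. They are 8 of the 12 annexin genes among them. The question was whether the pattern of *Anxa1* over libraries and over stages of differentiation holds for the others.

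The data are 3 single-cell RNA libraries, 1 for each group, of CD133+ cells sorted by flow cytometry from the bone marrow of C57BL/6 mice, as the labels and the series title have it (the design text calls them intestinal). The control library (labelled Ctrl) and the young library both have an age of 3 months in their labels, and the old library has 27 months in its label and 18.5 months in the design text of the series. No treatment or transgene is named for any group, and the cells of 3 mice each were pooled for young and old, so no library has a replicate. The labels do not state what sets the control library apart from the young library. Because each group is 1 library, no test between groups was possible. Every interval given is an exact 95% interval for counting error only, and differences between mice, sorts or preparations are not in it.

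Each captured mRNA molecule carries a unique molecular identifier (UMI), and a level is the UMIs of a gene as a share of all UMIs of the same cells, scaled to 1e+06 (CPM). After the cell filters 9780 control, 7378 young and 9681 old cells remained, with median depths of 9560.5, 10174.5 and 12690 UMIs. The cells not set aside as other blood types carried neutrophil precursor genes (6 markers with a summed level of 114585 to 133220 CPM). Summed over all these cells, 0 of 8 endothelial markers reached 10 CPM in any library and *Tek* was at 0 in all 3. Among the cells richest in *Mpo* (band 1 below), 1 of the 8, *Egfl7*, reached 10 CPM in each library. *Prom1*, the gene of CD133, had 45.9 to 52.8 CPM. A total of 906 cells in 6 clusters carried markers of other blood cells and were set aside, which were 10.0% of the young, 0.859% of the control and 0.857% of the old cells. The remaining 25933 cells gave the levels below. The libraries stood apart: 3 clusters almost wholly of young cells (1314, 1034 and 764 cells, of which 1314, 1033 and 760 were young) carried interferon-induced genes. Another cluster with such genes held 1041 young, 424 control and 10 old cells. *Isg15* had 133 CPM in young, 8.83 in control and 4.03 in old cells. Other clusters came almost wholly from old cells.

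The *Anxa1*, *Anxa2*, *Anxa7* and *Anxa11* genes, which were higher in old than in young cells and higher in band 6 than in band 1 in the results that follow, were compared in the 250 bases before their RefSeq starts. Of the 8 members, 6 had an entry in the promoter table (RefSeq, GRCm38.p6). Of 7 motifs searched on both strands, the match nearest to the start is shown with its surroundings (30 bases, 5′ to 3′ on the strand of the gene, matches in capitals):
Anxa1: cagttcatatccTATAAAatcaggagtcca
Anxa2: aggatgGGGCGGgTATAAAagccccaccca
Anxa7: tctatctttgagtccctctgctCCGCCCac
Anxa11: ccatctcgtgcggctCCGCCCcggggcgac
These bases lie at chr19:20390686-20390715 (minus strand), chr9:69453653-69453682 (plus), chr14:20480134-20480163 (minus) and chr14:25842125-25842154 (plus). The bases of *Anxa1* and *Anxa2* lie within exons of longer GENCODE transcripts, and those of *Anxa7* and *Anxa11* lie outside any exon. The TATA box motif TATAAA was found 32 bases before the start of *Anxa1* and 17 bases before that of *Anxa2*, and in 12.4% of all 32851 promoters. The GC box GGGCGG, which reads as CCGCCC from the opposite strand, was found in *Anxa2* (3 matches), *Anxa7* (1) and *Anxa11* (3), and in 32.7% of all promoters, but not in *Anxa1*. The window of *Anxa1* also held TTGCNNAA, a form of the C/EBP core that includes the searched TTGCGCAA, on the minus strand (9.56% of all promoters). GAGGAA, the core of PU.1 sites, was found in *Anxa1* and *Anxa11* (23.3%). CCAAT (33.8% of all promoters), TTGCGCAA (0.164%) and AGAACA, the core of glucocorticoid receptor sites (16.1%), were found in none of the 4. The windows of *Anxa4* and *Anxa5* held none of the 7 motifs. No motif was shared by all 4 genes shown, and a match is a string of letters only.

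To follow differentiation, each cell was placed in 1 of 6 bands by its UMIs per 10000. Bands 1 to 4 held cells with fewer than 5 UMIs of *Retnlg* and *Mmp8* together and with *Mpo* of 50 or more, 10 to 50, 3 to 10 and below 3. Band 5 held cells with 5 to 20 UMIs of *Retnlg* and *Mmp8* and band 6 those with 20 or more, both with *Mpo* below 10. The control, young and old libraries had 1223, 966 and 671 cells in band 1, and 333, 410 and 1629 cells in band 6. A further 1235 cells had 10 or more UMIs of *Mpo* with 5 or more of *Retnlg* and *Mmp8*, and were in no band. They were 1.28% of the control, 7.28% of the young and 6.54% of the old cells not set aside (124, 483 and 628 cells). The middle edges lie near the level of free RNA, for which cells of other blood types were taken as a guide. Their medians were 2.65 to 6.30 UMIs of *Mpo* and 2.79 to 4.50 of *Retnlg* and *Mmp8* per 10000. The 90th percentiles of *Mpo* were 7.01 to 34.3, and whether some of these cells make *Mpo* themselves was not tested. Band 1 needs fewer than 5 UMIs of *Retnlg* and *Mmp8*, an edge between these medians and the 90th percentiles of 6.45 to 10.5. The contrast of bands 1 and 6 thus also depends on an edge near the level of free RNA.

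*Anxa1* (chr19:20373428-20390944, minus strand, GRCm38) had 3263 CPM in control, 3102 in young and 5827 in old cells. The old library was high and the other two lay close together. The log2 ratio was 0.91 (0.90 to 0.92) for old over young, 0.84 (0.83 to 0.84) for old over control and 0.07 (0.06 to 0.08) for control over young. The noncoding gene *1500015L24Rik*, which lies across *Anxa1* on the other strand, had at most 0.0629 CPM.

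From the cells rich in *Mpo* to the cells rich in *Retnlg*, the CPM of *Anxa1* rose in every library. In bands 1 to 6 the control library had 1201, 2042, 3888, 4123, 4421 and 4086 CPM. The young library had 1145, 2107, 3618, 3902, 4045 and 4882 CPM. The old library had 3085, 4719, 5919.5, 6108, 6502 and 7168 CPM. Most of the rise lay between bands 1 and 3, and band 1 of the old library already lay between bands 2 and 3 of the other two. The log2 ratio of band 6 over band 1 was 1.77 in control, 2.09 in young and 1.22 in old cells.

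The ratio of old over young was thus larger in bands 1 and 2 than in later bands. The log2 ratio of old over young was 1.43 (1.40 to 1.46) in band 1, 1.16 in band 2, 0.71 in band 3, 0.65 in band 4, 0.69 in band 5 and 0.55 (0.53 to 0.58) in band 6. Old over control, which shares the old library with it, had 1.36 (1.33 to 1.39) in band 1, 0.57 in band 4 and 0.81 (0.78 to 0.84) in band 6. *Mpo* itself was lower within band 1 of the old library (7657 CPM, against 9798 in young and 8613 in control). Band 1 was therefore split further at 75 and 100 UMIs of *Mpo* per 10000, a split chosen after seeing the data. Old over young was then 1.21 (1.16 to 1.26) at 50 to 75, 1.37 (1.32 to 1.43) at 75 to 100 and 1.16 (1.09 to 1.23) above 100, where the old library had 78 cells. Old over control was 1.35, 1.39 and 0.96 (0.88 to 1.04). Above 100 the ratios were thus no larger than those of band 2 (1.16 for old over young and 1.21 for old over control).

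Free RNA can add to these levels. In erythroid-like cells, which should carry little *Anxa1* of their own, the levels of *Anxa1* were 186 CPM (control, 11 cells), 431 CPM (young, 68 cells) and 809 CPM (old, 9 cells), so that the old library was high there too. These values lie below those of band 1 in each library. B-progenitor-like cells had more, with 1724 CPM (control, 19 cells), 905 CPM (young, 126 cells) and 3161 CPM (old, 8 cells). The control value lies above band 1 (1509 to 1961), and the interval of the old value (2770 to 3592) holds the level of old band 1. In all 5 groups of other blood cells found in both libraries *Anxa1* was higher in the old than in the young library. The part of free RNA in the band 1 levels was not tested.

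**Figure D1:**
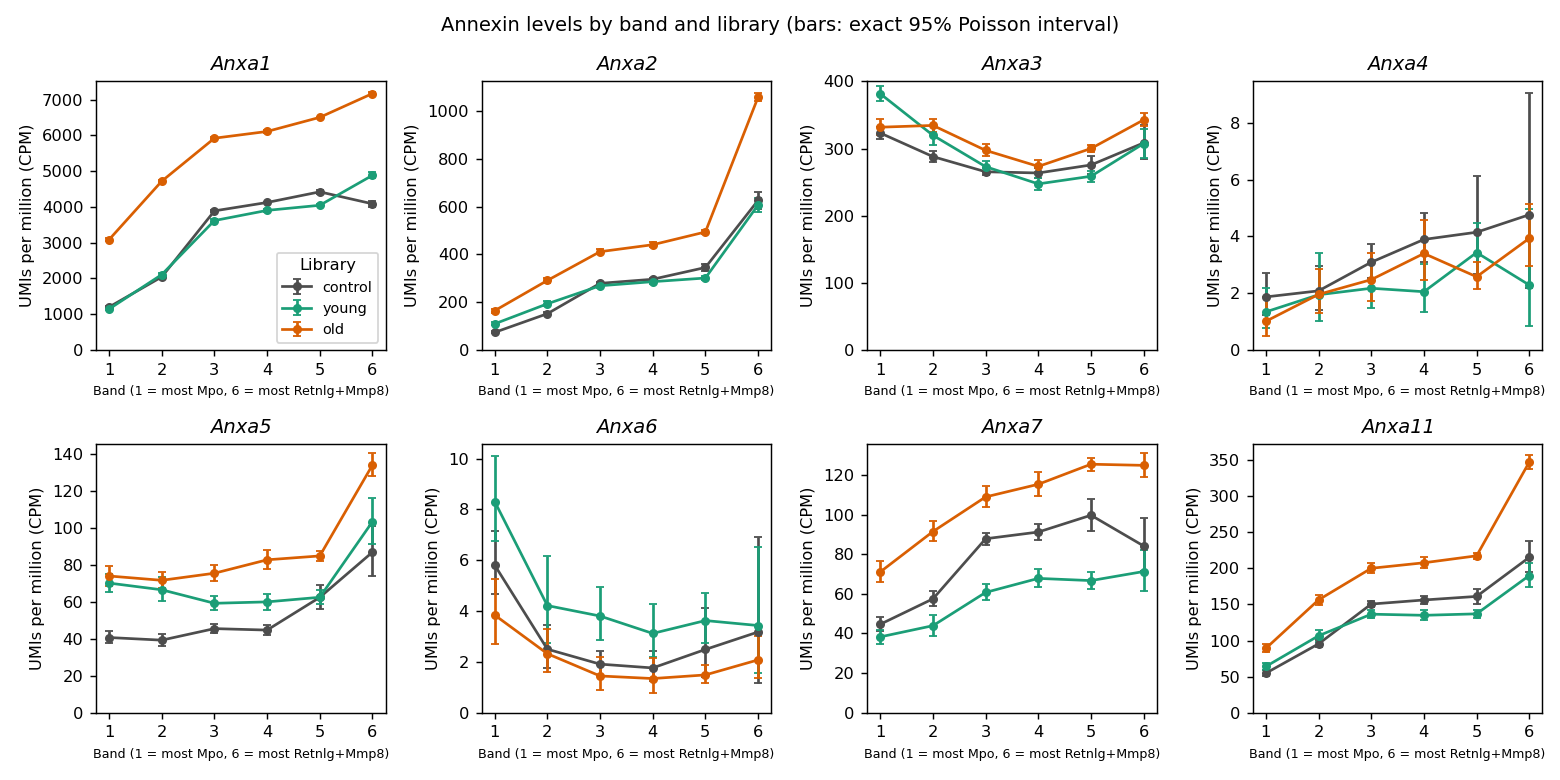
Levels of the 8 annexin genes (CPM, vertical axes from 0) in bands 1 to 6 (horizontal axis) for the control, young and old libraries; bars are exact 95% Poisson intervals. *Anxa1* rose from 1145 CPM to 4882 CPM in young and from 3085 CPM to 7168 CPM in old cells, *Anxa2* and *Anxa11* rose again into band 6, *Anxa3* dipped in the middle and *Anxa6* was highest in band 1.

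The higher level of the old library was spread over most cells. When every cell was thinned to 3000 UMIs, the median cell of band 1 had 3 UMIs of *Anxa1* in control and in young and 8 in old. In band 6 the medians were 12, 15 and 20. At least 1 UMI of *Anxa1* was found in 87.9% (85.7 to 89.9) of young and 99.3% (98.3 to 99.8) of old band 1 cells at this depth, against 58.8% of young erythroid-like cells (median depths of 12528, 15261 and 10494.5 UMIs). Without thinning the shares were 99.1%, 99.9% and 85.3%.

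**Figure D2:**
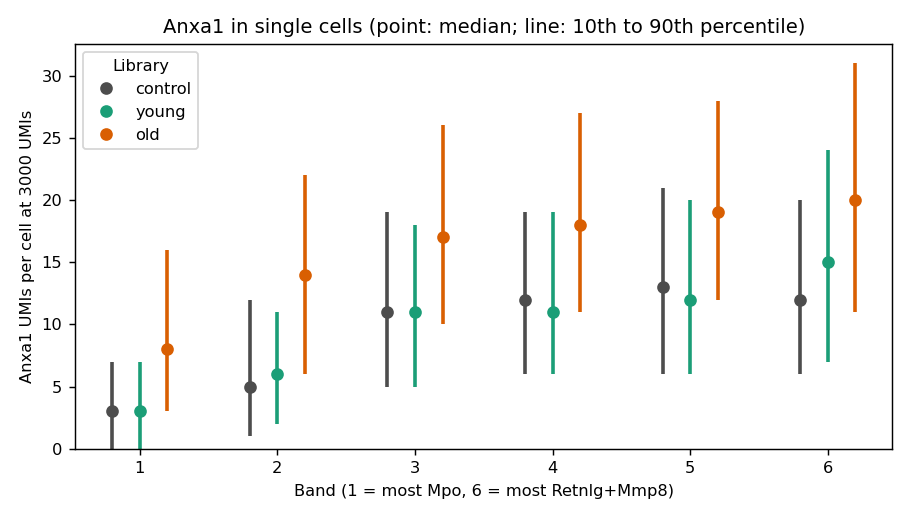
UMIs of *Anxa1* per cell after thinning each cell to 3000 UMIs (vertical axis), by band (horizontal axis) and library; points are medians and lines run from the 10th to the 90th percentile of cells. In band 1 the old median of 8 lies above the 90th percentile of 7 in control and young cells.

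Next, the other members were compared with this pattern. Of the 8 annexins, 6 reached the minimum of 10 CPM in at least 1 library of each pair, and *Anxa4* and *Anxa6* did not. A gene was counted as higher or lower at a ratio of 1.5 times. For old over young, 4 of the 6 were higher (*Anxa1*, *Anxa2*, *Anxa7* and *Anxa11*), against 5.03% of all 5591 genes that passed the minimum, and 0 were lower (10.2% of all genes). The median log2 ratio of the 6 was 0.85, and that of all genes -0.09. For old over control, 4 of the 6 were higher (*Anxa1*, *Anxa2*, *Anxa5* and *Anxa11*) against 5.36% of all genes, with a median of 0.75 beside -0.08, and 0 were lower (8.81% of all genes). For control over young 0 of the 6 were higher (2.48% of all genes) and 0 were lower (3.69%). The first pair of comparisons share the old library and the first and the last share the young library, so that they are not independent. The counts and medians of the 6, here and below, include *Anxa1*, the gene whose pattern set the question. Ratios of whole libraries also carry their mix of bands. Of the cells not set aside, band 6 held 3.43% in control, 6.18% in young and 17.0% in old. Band 5 held 8.71%, 26.1% and 38.7%. With bands weighted equally, old over young was 0.77 for *Anxa1*, 0.70 for *Anxa2*, 0.87 for *Anxa7* and 0.66 for *Anxa11*. On that weighting 4 of the 6 passed the limit for old over young and 3 for old over control.

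Between the ends of differentiation, 4 of the 6 were at least 1.5 times higher in band 6 than in band 1 in all 3 libraries (*Anxa1*, *Anxa2*, *Anxa7* and *Anxa11*), against 10.6% of 5845 genes, and 0 were lower (55.7% of all genes). Read by itself, the control library had 5 of the 6 higher (16.0% of its genes), the young library 4 (13.6%) and the old library 5 (14.1%), the fifth being *Anxa5*. The median gene was lower in band 6, with log2 ratios of -0.96, -0.90 and -1.07 in control, young and old. Cells of band 6 were also shallower, with median depths of 4642, 5040 and 7854 UMIs against 12854, 12528 and 15261 in band 1. Counted as UMIs per cell, 2 of the 6 (*Anxa2* and *Anxa11*) remained at least 1.5 times higher in band 6 in all libraries. No share of all genes is given on this scale, so that this count has no background beside it. *Anxa1* then had 14.7 and 23.2 UMIs per cell in bands 1 and 6 of control and 14.1 and 31.2 in young. Old cells had 45.5 and 59.3, so that the old library fell short of the limit. Between these ends *Anxa1* was highest in band 4 of control (39.3) and young (40.5) and in band 3 of old cells (80.8). *Anxa11* was lower in band 6 than in band 4 in control (1.22 and 1.49) and young (1.22 and 1.40). In old cells *Anxa11* was higher in band 6 (2.88 and 2.72). The rise of *Anxa7* was lost on this scale, with log2 ratios of band 6 over band 1 of -0.20 in control, -0.05 in young and -0.02 in old cells. Smaller cells and a larger share of the mRNA cannot be told apart here.

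*Anxa2* (chr9:69453620-69491795, plus strand), whose protein joins membranes to the actin cortex and pairs with S100A10, had 242 CPM in control, 249.95 in young and 476 in old cells. Only the old library stood out, with log2 ratios of 0.93 (0.90 to 0.95) over young and 0.97 (0.95 to 0.99) over control. In bands 1 to 6 it had 73.7, 152, 279, 296, 345 and 626 CPM in control cells. Young cells had 109, 193, 269, 286, 300.9 and 606 CPM, and old cells 164, 291, 411, 440.2, 494 and 1057 CPM. It rose over the whole course to 8.49, 5.54 and 6.43 times the level of band 1. Erythroid-like cells had 75.6 CPM (56.8 to 98.7) in young and 124 CPM (61.7 to 221) in old, near the levels of band 1, and the part of free RNA there was not tested.

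The ratio of *Anxa2* between libraries did not follow that of *Anxa1*. Old over young was 0.59 (0.48 to 0.69) in band 1 and 0.80 (0.73 to 0.88) in band 6, a rise where *Anxa1* fell. Within the 3 parts of band 1 it was 0.37, 0.24 and 0.63, below the limit in the first 2. Old over control did fall, from 1.16 (1.05 to 1.27) to 0.76 (0.67 to 0.84). The control and young libraries themselves differed in band 1 (log2 ratio of -0.57, -0.69 to -0.45).

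*Anxa11* (chr14:25842156-25886804, plus strand), which binds the calcium sensors ALG-2 and S100A6 and tethers RNA granules to lysosomes, came nearest to *Anxa2*. It had 130.2 CPM in control, 119 in young and 207 in old cells, with log2 ratios of 0.79 (0.75 to 0.83) for old over young and 0.67 (0.63 to 0.70) for old over control. From band 1 to band 6 it rose from 54.8 to 215 CPM in control, from 64.1 to 190.2 CPM in young and from 89.3 to 347 CPM in old cells. Old over young grew from 0.48 (0.34 to 0.62) to 0.87 (0.74 to 1.01). Within the 3 parts of band 1 it was smaller, at 0.24 (0.02 to 0.47), 0.19 (-0.06 to 0.43) and 0.26 (-0.18 to 0.67). Old over control did not grow, with 0.70 in band 1, 0.41 in bands 3 and 4 and 0.69 in band 6. Young erythroid-like cells had 29.4 CPM (18.2 to 45.0), below young band 1. Its antisense gene *Anxa11os* had at most 0.0944 CPM.

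*Anxa7* (chr14:20455260-20480133, minus strand), a calcium-dependent GTP-binding annexin linked to granule fusion, had 77.7 CPM in control, 57.3 in young and 111 in old cells. The 3 libraries were spread, with log2 ratios of 0.95 (0.90 to 1.01) for old over young, 0.51 (0.47 to 0.56) for old over control and 0.44 (0.38 to 0.50) for control over young. On the CPM scale it rose to band 4 and then levelled: bands 1, 4 and 6 had 44.6, 91.2 and 84.1 CPM in control, 38.3, 67.8 and 71.3 in young and 71.1, 115 and 125 CPM in old cells. Old over young lay between 0.77 and 1.06 in all 6 bands, with no difference between bands 1 and 6 beyond counting error (0.89 and 0.81, with overlapping intervals). In young erythroid-like cells *Anxa7* had 35.0 CPM (22.7 to 51.7), and its level in band 1 of young cells lay within that interval.

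*Anxa5* (chr3:36448923-36475894, minus strand), the phosphatidylserine binder used to stain dying cells, had 45.6 CPM in control, 64.4 in young and 85.3 in old cells. Here the control library was low, so that old over control passed the limit at 0.90 (0.85 to 0.96) and old over young did not at 0.40 (0.35 to 0.46). It was flat from band 1 to band 4 (40.6 and 44.7 CPM in control, 70.1 and 59.9 in young, 73.9 and 82.7 in old) and reached 86.8, 103 and 134 CPM in band 6. In band 1 old and young did not differ beyond counting error (0.08, -0.07 to 0.22). Young erythroid-like cells had 46.2 CPM (31.8 to 64.9), and after thinning 16.2% of them had a UMI, a share at or near that of young bands 2 to 5 (15.5% to 17.4%), so that expression could not be told from background there. Without thinning the share was 32.4% in these erythroid-like cells and 40.7% to 51.7% in young bands 2 to 5.

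*Anxa3* (chr5:96793339-96845966, plus strand), an annexin found on neutrophil granules, did not share the pattern. It had 279 CPM in control, 293 in young and 309.9 in old cells, with log2 ratios of 0.08 (0.05 to 0.10) for old over young and 0.15 (0.13 to 0.17) for old over control. Its CPM dipped and recovered: bands 1, 4 and 6 had 323, 264 and 309 CPM in control, 382, 247 and 308 in young and 332, 273 and 343 CPM in old cells. Counted as UMIs per cell it fell on to band 6 in each library, from 3.96 to 1.75 in control, from 4.71 to 1.97 in young and from 4.89 to 2.84 in old cells. In CPM, old was lower than young in band 1 (-0.20, -0.27 to -0.14) and higher in band 6 (0.16, 0.05 to 0.27). Young erythroid-like cells had 37.8 CPM, far below the level of every band.

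*Anxa4* (chr6:86736840-86793584, minus strand) had 3.07, 2.23 and 2.55 CPM in control, young and old cells, and *Anxa6* (chr11:54979108-55033445, minus strand), which has a doubled annexin core, had 2.62, 4.70 and 1.89 CPM. Both lay below the minimum. Young erythroid-like cells had more of both, at 23.8 and 26.6 CPM. *Anxa6* was highest in band 1 in each library (5.81, 8.31 and 3.84 CPM), with 87, 99 and 38 UMIs behind these values. Of the other annexins, *Anxa8*, *Anxa10* and *Anxa13* had 0 UMIs in all 3 libraries, which at a limit of 3 counts allows up to 0.0315, 0.0440 and 0.0253 CPM in control, young and old (an exact 95% interval reaches to 0.0387, 0.0542 and 0.0311 CPM), and *Anxa9* had 0.587 to 0.800 CPM.

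Across the 6 members, the fall of old over young from band 1 to band 6 with intervals apart was found for *Anxa1* alone, against 18.5% of 4493 genes. This count of 1 of 6 lies near the share of all genes. A rise with intervals apart was found for 3 members (*Anxa2*, *Anxa3* and *Anxa11*), against 8.32% of these genes. By band, old over young passed the limit for 3, 3, 3, 4, 4 and 3 of the 6 in bands 1 to 6, against 4.26%, 6.79%, 7.54%, 6.75%, 7.30% and 8.33% of all genes. In band 6 these were *Anxa2* (0.80), *Anxa7* (0.81) and *Anxa11* (0.87), while *Anxa1* lay just below 1.5 times (0.55). *Anxa2* was just above the limit in bands 1 and 2 (0.59 each). Old over control passed it for 5, 5, 2, 1, 0 and 4 of the 6, against 5.03%, 5.92%, 6.57%, 6.11%, 11.4% and 10.1%. In band 3 these were *Anxa1* (0.61) and *Anxa5* (0.73) and in band 4 *Anxa5* (0.89), while *Anxa1* and *Anxa2* lay just below 1.5 times in band 4 (0.57 each). Control over young was lower for *Anxa5* alone in bands 1 and 2 (-0.79 and -0.76), against 7.13% and 5.30% of all genes.

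**Figure D3:**
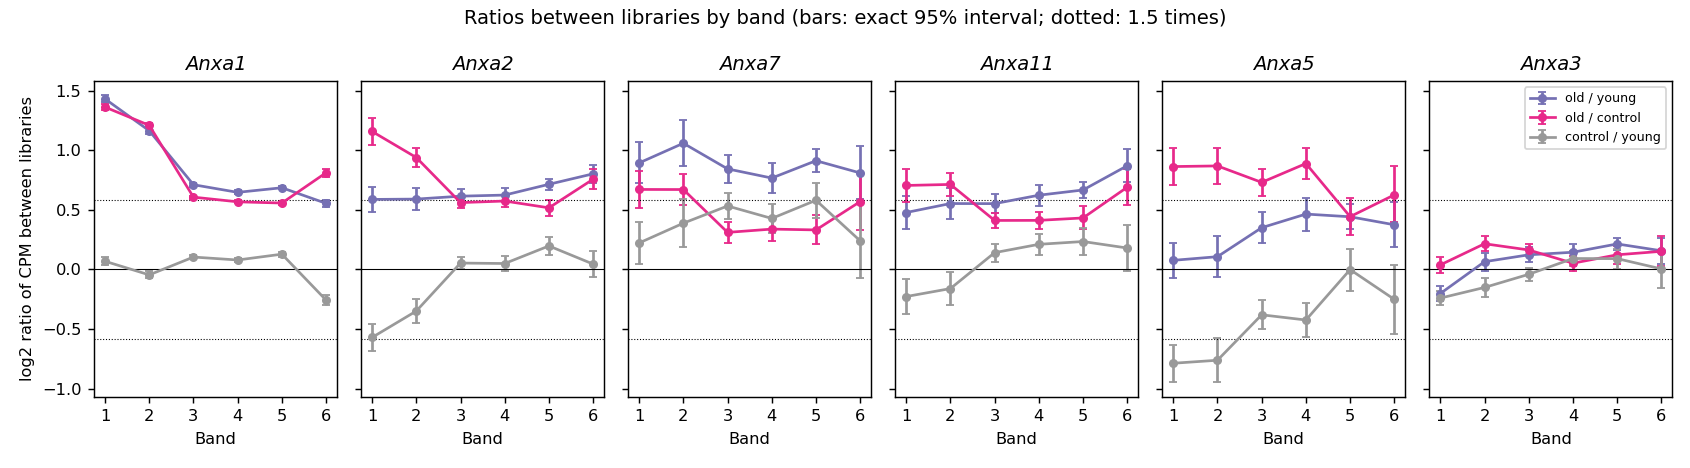
Log2 ratio of CPM between libraries (vertical axis) by band (horizontal axis) for the 6 annexins past the minimum; bars are exact 95% intervals for counting error and dotted lines mark 1.5 times. Old over young fell from 1.43 to 0.55 for *Anxa1*, stayed between 0.77 and 1.06 for *Anxa7*, rose to 0.80 for *Anxa2* and 0.87 for *Anxa11*, and lay near 0 for *Anxa3*.

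The members were also set against each other over the 18 sums of band and library. The log2(CPM + 1) values of *Anxa1* had a Pearson correlation of 0.94 with *Anxa11*, 0.92 with *Anxa7* and 0.90 with *Anxa2*, 0.57 with *Anxa5* and *Anxa4*, -0.37 with *Anxa3* and -0.83 with *Anxa6*. These points share 3 libraries and their depth and are a description only. Within single libraries (6 bands each) *Anxa1* had 0.92 to 0.93 with *Anxa2* and 0.98 to 0.99 with *Anxa7*. Among 1807 genes with at least 50 CPM on average, the profile most like that of *Anxa2* was that of *Anxa11* (0.98), followed by *Card19*, *Pi16*, *AB124611* and *Klf2* (0.98). Those most like *Anxa1* were *Mapk13* (0.98), *Glipr2* (0.96), *Cd177* (0.96), *Carhsp1* (0.95) and *Cdkn2d* (0.94). *Anxa3* stood with *Ccdc12* (0.92), *Ftl1* (0.90), *Cstb* (0.88), *Tmem30a* (0.87) and *Rsu1* (0.84).

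Within bands 3 and 4, cells were divided by 6 mitotic genes (*Mki67*, *Top2a*, *Birc5*, *Ube2c*, *Cdk1* and *Ccnb2*; 5 or more UMIs per 10000 counted as cycling). All 6 annexins past the minimum had lower levels in cycling than in non-cycling cells in each of the 3 libraries, against 12.6% of 4669 genes. For 5 of them (*Anxa1*, *Anxa2*, *Anxa3*, *Anxa5* and *Anxa11*) the interval of the log2 ratio lay below 0 in all 3, against 4.37% of these genes. *Anxa1* had 3909 and 4392 CPM in cycling and non-cycling control cells, 3630.3 and 4600.4 CPM in young and 5920.4 and 7073 CPM in old cells. The difference between libraries was present in both: old over young was 0.71 in cycling and 0.62 in non-cycling cells.

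By unsupervised clusters (annexins held out of the clustering, 24 clusters of at least 50 cells not set aside), *Anxa1* ran from 1094 CPM in cluster 12 to 7976 CPM in cluster 26. Cluster 12, led by *Fkbp11* and *Srm*, held 684 control, 203 young and 11 old cells. Cluster 26, led by stefin A genes, held 176 old and 2 young cells, so that cluster and library cannot be told apart. *Anxa2* and *Anxa11* were both highest in cluster 17 (1484 and 424 CPM), led by *Prok2* and *Wfdc17*, and lowest in cluster 12 (65.5 and 48.6 CPM). Cluster 17 held 737 old cells of 765, so that these extremes too cannot be told apart from the library. *Anxa3* varied least, from 155 to 372 CPM.

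Other blood cells in the sort carried a different set of annexins. The 739 young cells set aside were used for this, since the other libraries had 84 and 83. NK/T-like cells (58 cells) had 245 CPM of *Anxa6*, 52.1 times (42.2 to 64.1) the level of the young cells not set aside, and 747 CPM of *Anxa2* against 249.95 CPM. The cluster called B-progenitor-like also carried dendritic and plasma cell markers, fewer of each than of B progenitors. Clusters 23 and 25 (283 and 175 young cells) both carried monocyte and dendritic cell markers, cluster 25 also macrophage markers, and are left unnamed. They had 119 and 91.3 CPM of *Anxa6*, 364 and 550.0 CPM of *Anxa5* (5.65 and 8.53 times), 688 and 1022 CPM of *Anxa2* and 23.5 and 61.6 CPM of *Anxa4*. *Anxa1* was lower in all 6 groups. It had 975 and 703 CPM in these clusters, 629 CPM in NK/T-like, 905 CPM in B-progenitor-like, 431 CPM in erythroid-like and 2362 CPM in basophil- and mast-like cells, against 3102 CPM in the cells not set aside.

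These few cells held much of some members' signal in the young library. Of the kept young UMIs, 67.0% (63.9 to 69.9) of those of *Anxa6*, 50.3% of *Anxa4*, 28.5% of *Anxa5* and 17.6% of *Anxa2* came from the cells set aside, against 2.71% of *Anxa1*. In the old library the shares were 15.4%, 7.34%, 2.53%, 1.12% and 0.215%. With these cells kept in, the log2 ratio of old over young was 0.08 for *Anxa5* and -2.54 for *Anxa6*, in place of 0.40 and -1.31.

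**Figure D4:**
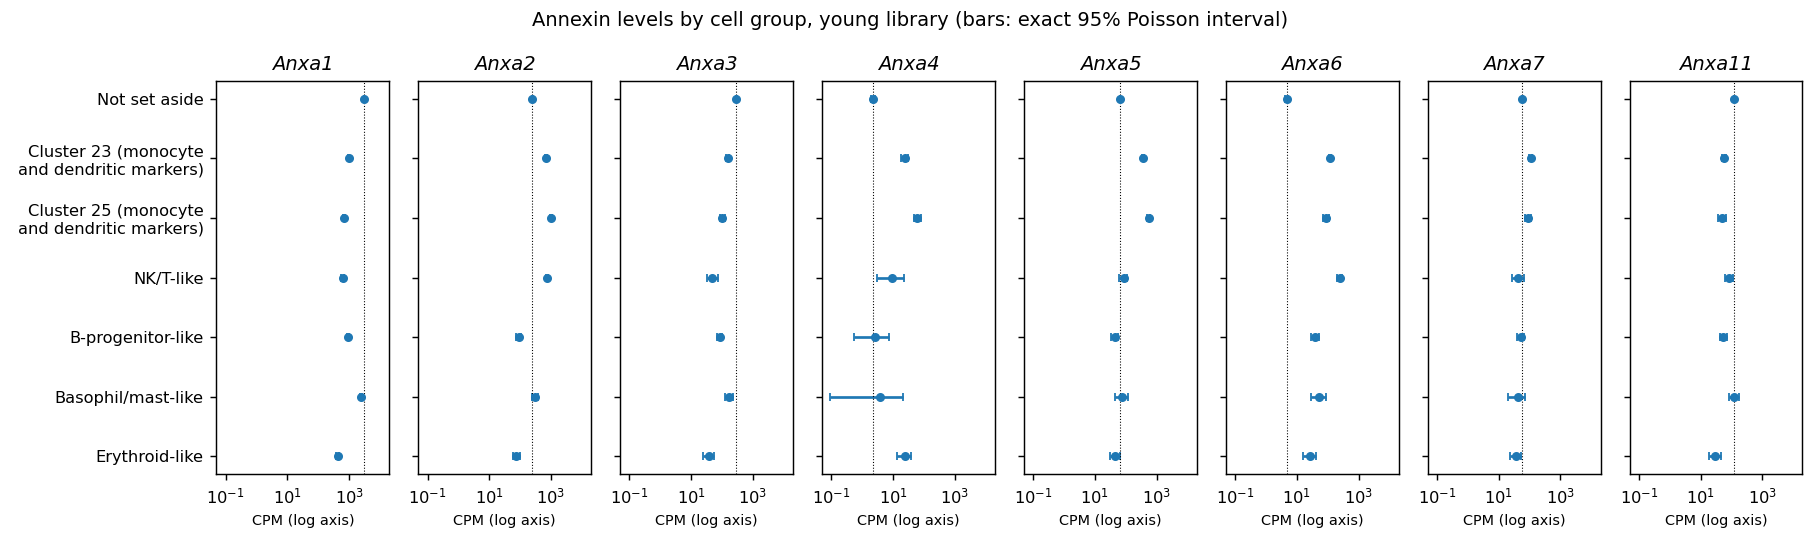
Levels of the 8 annexins (CPM, horizontal log axes) in the young library for the cells not set aside and for 6 groups of other blood cells; bars are exact 95% Poisson intervals and the dotted line is the level of the cells not set aside. *Anxa6* lies at 245 CPM in NK/T-like cells against 4.70 CPM, and *Anxa1* lies below the dotted line in all 6 groups.

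Finally, 18 genes of annexin partners and receptors and 12 genes that respond to glucocorticoids were read in the same way. Of the partners, 14 passed the minimum for old over young: 4 were higher (*S100a6*, *Fpr1*, *Fpr2* and *Plscr1*), 1 was lower (*S100a10*) and 9 were neither, beside 5.03% and 10.2% of all genes. *S100a6*, a calcium sensor that binds *Anxa11* and *Anxa2* proteins, had 211 CPM in control, 351 in young and 2061 in old cells. From band 1 to band 6 it rose from 32.4 to 2377 CPM in control, from 71.8 to 2681 CPM in young and from 306 to 7943 CPM in old cells. The formyl peptide receptor genes rose over the bands as well. *Fpr1* had 5.92, 9.82 and 34.0 CPM in control, young and old cells, and *Fpr2*, the receptor of ANXA1, had 66.4, 43.1 and 93.2 CPM. In band 6 *Fpr1* had 117, 134 and 204 CPM. *Fpr2* reached 299.5, 211 and 277 CPM there, so that it was not highest in old cells. The whole-library levels of both genes also carry the larger band 6 of the old library. *S100a11*, the partner of ANXA1, had 1854, 2176 and 2214 CPM and was near equal in young and old cells. *S100a10*, the partner of ANXA2, was low at 2.95, 13.7 and 1.89 CPM. It was among the leading genes of cluster 23, where 283 of 339 cells were young, and the part of free RNA in its level was not tested. Against control, 13 partners passed the minimum, 2 were higher (*S100a6* and *Fpr1*) and 0 were lower, beside 5.36% and 8.81% of all genes. The libraries of 3 months differed as well: control over young was higher for *Fpr2* (0.62) and *Plscr1* (0.64) and lower for *S100a6* (-0.73) and *S100a10* (-2.22), beside 2.48% and 3.69% of all genes. Over the bands, 5 of 13 were higher in band 6 in all libraries (*S100a6*, *S100a11*, *Fpr1*, *Fpr2* and *Plscr1*) and 2 were lower (*Plgrkt* and *Plscr3*), beside 10.6% and 55.7% of all genes.

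Of the glucocorticoid genes, 6 passed the minimum, 2 were higher in old than in young and than in control (*Sgk1* and *Il1r2*) and 0 were lower, beside the shares of all genes given above. For control over young 5 passed the minimum and 0 were higher or lower. Over the bands, 4 of 7 were higher in band 6 in all libraries (*Tsc22d3*, *Sgk1*, *Dusp1* and *Il1r2*) and 1 was lower (*Mt1*), beside 10.6% and 55.7% of all genes. *Tsc22d3* had log2 ratios of band 6 over band 1 of 1.09, 0.65 and 0.83 in control, young and old cells. *Il1r2*, a decoy receptor of interleukin 1, had 75.4, 50.6 and 145 CPM in control, young and old cells, and *Sgk1*, a kinase, 6.69, 6.50 and 15.2 CPM. *Tsc22d3*, the gene of the glucocorticoid-induced leucine zipper, had 77.4, 82.8 and 78.5 CPM, and *Fkbp5* 20.3, 20.5 and 16.6 CPM. The median log2 ratio of the 6 was -0.07 for old over young and -0.01 for old over control, next to -0.09 and -0.08 for all genes. *Nr3c1*, the gene of the receptor, had 30.5, 32.0 and 26.4 CPM. The part of glucocorticoids in the levels of *Anxa1* was not tested.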

How the data were processed

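The libraries were made with the 3′ v2 chemistry of 10x Genomics. Per the labels, reads were aligned with STAR and counted with Cell Ranger 2.1.0 on mm10, and the authors deposited whole UMI counts per gene and cell without normalization. Of 27998 gene identifiers, 27645 were found in GENCODE M21 (GRCm38), the source of gene positions. The members and lists were chosen with earlier results of these data known.

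Cells with at least 200 genes, at most 20% mitochondrial UMIs and a UMI count within the 5th to 95th percentile (control alone, young and old together) were kept (74708327 to 119588365 UMIs per library). Cell barcodes shared by a pair of libraries numbered 120 to 161 (1.13% to 1.52%). Leiden clusters (2000 variable genes without the annexins and lists, 30 components, 15 neighbours, resolution 1) were set aside where at least 3 markers of 1 of 9 other blood types reached 10 CPM and 10 times the other cells. No doublet caller was run; the UMI limit and an alternative without the highest 10% stand in. UMIs were summed by library, band or cluster. Poisson, Clopper-Pearson and conditional binomial intervals were used. Marker genes, partners and the 5 genes most like *Anxa1*, *Anxa2* and *Anxa3* were named by list or by rank. The ratio between libraries, its interval and the limit of 1.5 times were tested on simulated Poisson counts. Clustering, bands and thinning were not tested in this way. Alternatives changed trimming, cells kept, band edges, scaling, weights, depth, the limit of 1.5 times and the minimum of 10 CPM. The tools were leidenalg 0.10.2, scikit-learn 1.9.0, scipy 1.17.1, numpy 2.4.6, pandas 2.3.3 and matplotlib 3.10.9 in Python 3.11.15.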

Additional observations from a re-analysis of the deposited data

How the results depend on the processing

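No paired analysis was possible because each group is 1 library, and for the same reason no library could be left out. Of 65 alternative counts, 61 stayed within 1.5 times of the value given. Of the alternative log2 ratios, 97 stayed within the interval for counting error of the main ratio and 95 lay outside it. With a limit of 2 times, 0 annexins passed for old over young and 0 for old over control, in place of 4 each. At that limit 120 of 5591 genes were higher and 157 lower for old over young. For old over control these were 105 and 77 of 5451 genes. With other blood types kept in, 2 passed for control over young in place of 0. Of 5728 genes, 91 were then higher and 379 lower. Counted as UMIs per cell, 2 in place of 4 were higher in band 6 in all libraries, with no share of all genes given. On that scale band 6 over band 1 of *Anxa7* turned to -0.20, -0.05 and -0.02 in control, young and old. For old over control the count was 3 with bands weighted equally, where 276 of 5456 genes were higher and 273 lower. No called ratio between libraries turned its sign: over 8 alternatives old over young ran from 0.77 to 1.18 for *Anxa1*, 0.70 to 1.20 for *Anxa2*, 0.87 to 1.22 for *Anxa7* and 0.66 to 1.06 for *Anxa11*. Uncalled ratios that changed sign were those of *Anxa4* (all 3 comparisons) and, for control over young, *Anxa2* and *Anxa3*. UMIs per cell moved the median of all genes from -0.09 to 0.20 (old over young) and from -0.08 to 0.27 (old over control). Higher genes were 33.0% of those past the limit for old over young, 75.4% as UMIs per cell and 22.8% with other blood types kept in. For old over control they were 37.8%, 90.7% as UMIs per cell, 51.0% with median ratio scaling and 50.3% with bands weighted equally. For control over young they were 40.2%, and 19.4% with other blood types kept in and 27.4% as UMIs per cell. An edge of 15 for *Retnlg* and *Mmp8*, added after seeing the data, gave 5 in place of 4 members higher in band 6. No share of all genes is given for this edge. Cells let in by wider UMI limits were not clustered. Depth limited *Anxa4* and *Anxa6*, with 9 and 6 UMIs in band 6 of the control library.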
